A study of Mus musculus with 27 samples.

Results

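The comparison was between old mice kept on a medium-fat diet and old mice kept on the control diet, and it was made over all genes measured in the liver. Mice were placed in the groups by the diet that the sample labels give: 7 arrays belonged to the medium-fat group (MF) and 8 to the control group (C), which is 15 of the 27 arrays of the series. All were male C57BL/6J mice, an inbred laboratory strain, and all were 28 months old when the liver was taken. C mice ate AIN-93W, a purified maintenance diet, and MF mice ate its medium-fat variant AIN-93W-MF, with 25% of energy from fat. Both groups ate ad libitum from an age of 9 weeks, after 2 weeks on a common growth diet, so that neither group was restricted and both had been on their diets for most of their lives. Before sacrifice the mice of both groups were fasted for 4 h, received 400 µl of a carboxymethyl cellulose solution by gavage and were fasted for another 6 h. The other 12 arrays came from calorie-restricted mice (CR, 5) and from restricted mice moved to the medium-fat diet late in life (CR-MF, 7). They entered the estimate of the spread between mice, and CR served as a yardstick for the size of a diet effect.

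The liver takes up fatty acids from food and from fat tissue, burns them in mitochondria and peroxisomes, stores them as triglyceride and exports them in lipoproteins. It also makes fatty acids and cholesterol, and the genes of these pathways are under the control of nuclear receptors such as PPARalpha and of the sterol-regulated factor SREBP. Whole liver holds hepatocytes together with Kupffer cells (the resident macrophages), endothelial cells, stellate cells, bile duct cells and blood cells, so that a difference in the level of a marker gene can come from fewer cells of a type or from less RNA per cell, and the measurements here cannot tell these apart.

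RNA of each liver was hybridised to 1 Affymetrix Mouse Gene 1.1 ST array, and the values are log2 intensities, on which a difference of 1 is a doubling. The median log2 intensity of the 15 arrays lay between 5.38 and 5.48 and the correlation between arrays between 0.963 and 0.993. After removal of genes with low or nearly constant signal, 13993 genes were tested. The hepatocyte marker Alb (albumin) lay between 13.55 and 13.69 in MF and between 13.55 and 13.66 in C, and Cps1, a urea cycle enzyme, between 12.59 and 12.86 in MF and between 12.54 and 12.95 in C, so both groups had the expression of liver. The exocrine pancreas enzyme gene Cpa1, a marker of tissue lying next to the liver, was near background in both groups, at no more than 4.75 in MF and 4.65 in C. By the codes in the array names, plate G150 held 6 C and 5 MF mice, while G151 and G152 each held 1 mouse of either group, and differences within the 3 plates are given beside the main values in that order. By the same codes all 8 C arrays lay in well row F and all 7 MF arrays in row G, so within these 15 arrays diet and well row cannot be told apart.

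No gene differed between MF and C at an adjusted p under 0.05 with limma (0 of 13993, 0%), and the lowest adjusted p was 0.233. At an unadjusted p under 0.01, 118 genes (0.843%) were found, 86 of them higher and 32 lower in MF, whereas 139.93 would be found with no differences at all. At an unadjusted p under 0.05 there were 556 genes (3.97%), 374 (2.67%) with the higher level in MF and 182 (1.3%) with the lower, where 699.65 would be found with no differences. The split by direction depended on normalization. At an unadjusted p under 0.01, 52 genes were higher and 45 lower with median centring, and 74 and 37 with quantile normalization. The number of genes at an adjusted p under 0.05 was also 0 with the intensity-based moderated statistic (119 at p under 0.01 and 559 under 0.05), without an intensity trend (120 and 563), with robust estimation (117 and 548), with array weights (120 and 542), with only the 15 arrays in the fit (86 and 519) and with the plate as a block (126 and 593). With well row as a block, where only CR arrays link the rows and the median standard error was 0.196, 1 gene was called, and 275 genes at p under 0.01 and 1033 under 0.05 were above the numbers found with no differences, whereas those of the fit without it were below. The link rests on 3 CR arrays in row F, all on plate G150, and 2 in row G, on plates G151 and G152. In these arrays row and plate cannot be told apart, so values from this fit do not separate well row from plate. The main fit, without a block, gave 758 genes (5.42%) between MF and CR, 392 of them higher in MF, and 220 (1.57%) between C and CR, 113 of them higher in C. These comparisons share arrays with each other and are set side by side only to show that the arrays and the filter allowed calls.

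**Figure D1:**
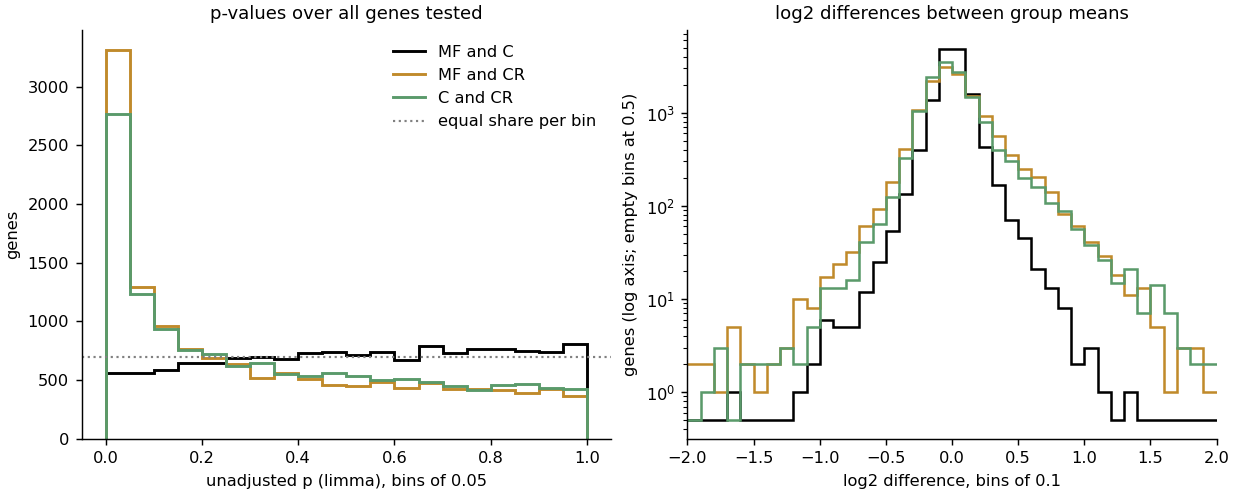
Left, number of genes per bin of the unadjusted limma p for MF and C, MF and CR, and C and CR, with the number per bin when p-values are evenly spread (699.65) as a dotted line. Right, number of genes (log axis) per log2 difference between group means; the curve for MF and C is narrower than those against CR, with 9 genes past 1 or −1 against 172 for MF and CR and 161 for C and CR.

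The measured differences were small for nearly all genes. From the 5th to the 95th percentile they ran from −0.19 to 0.21, with quartiles of −0.06 and 0.07 and a median of 0.00. Of 13993 genes, 13842 had a measured difference within −0.5 to 0.5 and 9 above 1 or below −1, and 452 (3.23%) had a difference larger than the larger SD of the 2 groups. The median standard error was 0.0978, which gives a 95% interval of ± 0.20 for a typical gene. The interval lay within −1 to 1 for 13723 genes (98.1%) and within −0.5 to 0.5 for 12152 genes (86.8%), so that a doubling fell outside the interval for most genes, while for 270 genes the interval reached past 1 or −1.

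Over all genes, the root mean square difference between the MF and C means was 0.138, while the spread between mice alone gives an expected 0.146. The mean square difference less the part due to spread was −0.0023, and lay between −0.00642 and 0.00223 with any 1 mouse left out. An exact permutation test over all ways to divide the 15 mice into groups of 7 and 8 gave p = 0.532. This is the share of divisions with a mean square difference at least as large as the measured one. Measured the same way, the root mean square difference was 0.296 between MF and CR (exact permutation p = 0.00253) and 0.273 between C and CR (exact permutation p = 0.00233), so the distance over all genes between the diets fed ad libitum was no larger than the spread between mice gives, and those to CR were larger. The values of the 2 groups did not overlap in 4 genes (0.0286%), all higher in MF. For a gene with no difference, groups of 7 and 8 mice separate in either direction with a probability of 0.000311. The share found is thus near that given with no differences. Rest, a repressor of neuronal genes, had lowest, median and highest log2 levels of 8.09, 8.12 and 8.23 in MF and 7.68, 7.89 and 8.04 in C. Tnfrsf22, a decoy receptor for TRAIL, lay at 6.05, 6.09 and 6.22 in MF and 5.43, 5.88 and 6.04 in C. Rab6b, a small GTPase of vesicle transport, lay at 5.49, 5.58 and 5.66 in MF and 5.20, 5.35 and 5.46 in C, and Hoxa6 at 4.68, 4.72 and 5.06 and 4.14, 4.45 and 4.56. In all of them the gap between the groups was small against their ranges, and none passed the test. With well row as a block, a fit in which only CR arrays link the rows, the difference of Rest was −0.033 against 0.26 without the block.

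Of the genes measured higher in MF, Slc24a3, a sodium/calcium exchanger, had the smallest p. Its lowest, median and highest log2 levels were 4.82, 5.09 and 5.27 in MF and 4.09, 4.61 and 4.95 in C, a difference of 0.49 (standard error 0.10, adjusted p = 0.233 from limma). All 7 MF mice lay above the C mean and 5 above every C mouse, and the differences within the plates were 0.52, 0.45 and 0.36. Efhd1, a calcium-binding protein of mitochondria, lay at 4.34, 4.82 and 4.93 in MF and 4.10, 4.27 and 4.43 in C, a difference of 0.44 (standard error 0.09, adjusted p = 0.233). Again 5 MF mice lay above every C mouse, but on plate G152 the difference was −0.07. Both genes had low signal, with Slc24a3 at no more than 5.27 and Efhd1 at no more than 4.93 in any mouse. The filter limit was 4.32, and several C mice lay below it for Efhd1. Each of these genes passed the threshold when 1 mouse was left out, Slc24a3 without the C mouse A4_19 (adjusted p = 0.0411) and Efhd1 without the MF mouse C4_5 (adjusted p = 0.0424). For every other gene the adjusted p was 0.993 or above. Chrm3, the M3 muscarinic acetylcholine receptor, lay at 6.12, 6.50 and 7.17 in MF and 5.35, 5.89 and 6.35 in C. Its difference of 0.70 was 0.95 on plate G150, with −0.06 and 0.05 on the other plates. Kcne3, a regulatory subunit of potassium channels, had the largest difference among the 10 genes with the smallest p, 1.08 (95% interval 0.47 to 1.70). Its levels were 5.64, 6.34 and 7.98 in MF and 4.92, 5.60 and 6.14 in C, with C4_1 and C4_7 far above the other MF mice, and the plates gave 1.08, 1.19 and 1.15.

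The remaining genes of this set were measured 0.26 to 0.71 higher in MF. The homeobox gene Hoxa6 (0.35), whose groups did not overlap, was close to the intensity limit of 4.32 used in the filter. Smoc2, a secreted calcium-binding protein of the matrix, lay at 6.64, 6.84 and 7.06 in MF and 6.41, 6.51 and 6.73 in C, and 6 MF mice were above every C mouse. Tent5c, a poly(A) polymerase, lay at 6.70, 7.27 and 8.07 in MF and 5.93, 6.67 and 7.09 in C (difference 0.71), with positive differences on all plates (0.71, 0.59 and 0.77). Kif12, a kinesin (0.33), Itgb4, the integrin beta 4 subunit (0.26), and Mfsd2b, a sphingosine-1-phosphate transporter of red cells and platelets (0.53), each had 5 MF mice above every C mouse. For Mfsd2b the MF mouse C4_1, at 6.18, lay apart from the other MF mice, of which the highest was at 5.31.

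Among the genes measured lower in MF, Lepr, the leptin receptor, had the smallest p and the largest difference after that of Hamp. Its lowest, median and highest log2 levels were 6.65, 6.99 and 7.73 in MF and 7.69, 8.07 and 9.27 in C. All MF mice but C4_9 lay below every C mouse. The difference was −1.18 (95% interval −1.76 to −0.60, standard error 0.28), with an unadjusted p of 0.000284 and an adjusted p of 0.993 from limma. It was of the same sign on each plate (−1.06, −1.86 and −1.21) and lay between −1.29 and −1.03 with any 1 mouse left out. The mean in CR was 9.32 ± 0.82 (SD, n = 5) and in CR-MF 7.08 ± 0.62 (n = 7), against 8.26 ± 0.53 (n = 8) in C and 7.08 ± 0.38 (n = 7) in MF, so that the order of the means was CR, C and then the groups on medium-fat diet. Bend6, a BEN domain protein, lay at 4.09, 4.53 and 4.98 in MF and 4.64, 4.97 and 5.55 in C, where A4_5 stood apart at the top, and the plates gave −0.64, −0.45 and 0.34. Sptlc1, a subunit of the enzyme that starts sphingolipid synthesis, lay at 7.57, 7.72 and 7.79 in MF and 7.79, 7.86 and 8.01 in C, a difference of only −0.17 with 6 MF mice below every C mouse. Slc9a8, a sodium/proton exchanger, was similar, with 8.78, 8.92 and 9.00 in MF, 8.97, 9.10 and 9.24 in C and a difference of −0.21. The other genes of this set were Calml4 (−0.51), Nobox (−0.30), Dppa5a (−0.39), Lhfpl2 (−0.35), Tfap2e (−0.29) and Bmp6 (−0.57). Of these, Nobox, an oocyte transcription factor, Dppa5a, a gene of pluripotent cells, and Tfap2e, a transcription factor of the AP-2 family, were at or under 5.11 in every mouse, near background.

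**Figure D2:**
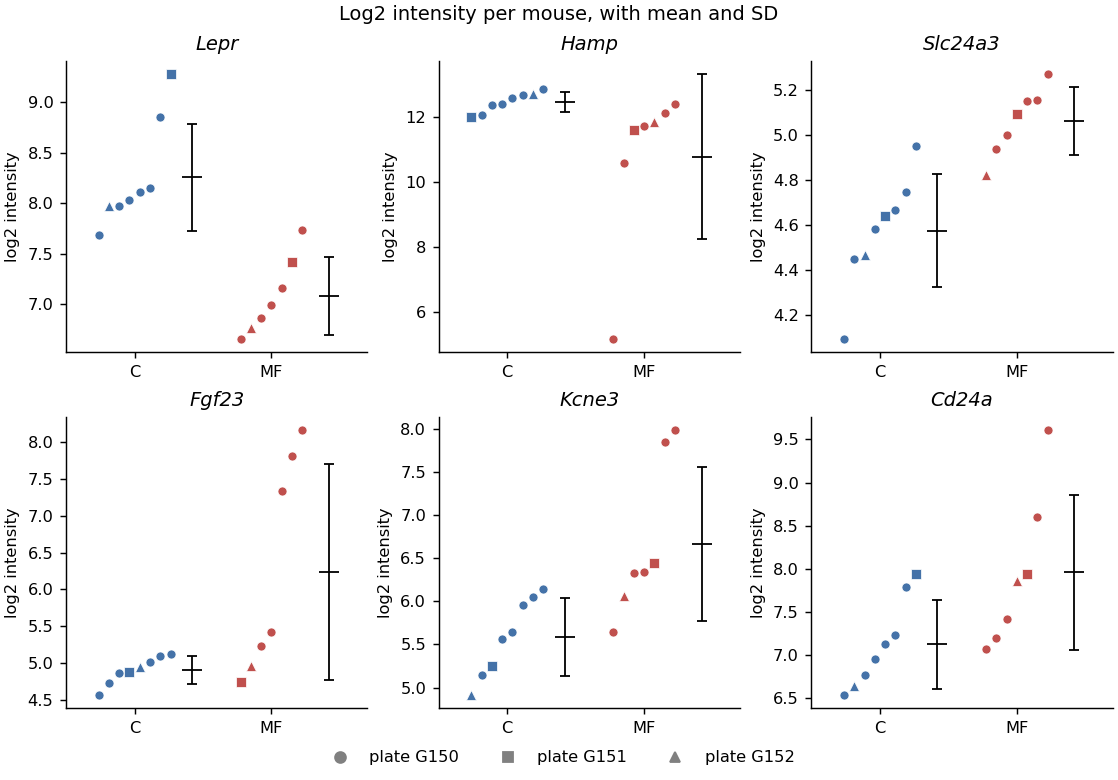
Log2 intensity of Lepr, Hamp, Slc24a3, Fgf23, Kcne3 and Cd24a in each C and MF mouse, with marker shape for the plate code, and the group mean and SD as black bars. Lepr and Slc24a3 differ over most mice. For Hamp most MF mice lie below every C mouse, but the size of the difference depends on 1 MF mouse at 5.17 (−0.74 without that mouse). The MF mean of Fgf23 rests on 3 MF mice between 7.34 and 8.17.

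Of the 9 genes with a difference past 1 or −1, several rested on a few mice. Fgf23, a hormone of phosphate balance that is made mainly by bone, lay between 7.34 and 8.17 in the MF mice C4_1, C4_7 and C4_9 and between 4.57 and 5.42 in the other 12 mice, for a difference of 1.34 (95% interval 0.57 to 2.10). Ffar4, a receptor for long-chain fatty acids, lay between 6.02 and 7.06 in the same mice and between 3.42 and 5.28 in the others (difference 1.06). In the other 4 MF mice Fgf23 was at most 5.42, against 5.12 in the highest C mouse. Ngp, a granule protein of developing neutrophils, was at 9.72 in C4_1 and 7.10 in C4_5, and at no more than 6.33 in any other mouse (difference 1.04, 0.40 without C4_1). The immunoglobulin A heavy chain gene Igha ranged from 4.95 to 9.27 in MF and from 4.73 to 8.62 in C. Its difference was 1.16 on the transcript cluster used, 0.81 on another and −0.24 on the third, which was near background. Cd209f, a C-type lectin, lay at 3.49, 3.95 and 6.52 in MF and 4.21, 4.78 and 8.67 in C, with the C mice A4_17 and A4_5 far above the others (difference −1.08). Hsd3b5, a steroid dehydrogenase of male mouse liver, lay at 3.21, 4.05 and 5.23 in MF and 3.40, 4.88 and 7.73 in C, so that the MF range was almost covered by that of C (difference −1.003). Lepr, Kcne3 and the hepcidin gene Hamp make up the 9.

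Hamp encodes hepcidin, the liver hormone that blocks iron export from gut and macrophages, and had the largest difference of all genes, −1.68 (95% interval −2.99 to −0.37, unadjusted p 0.0137). It lay at 12.01, 12.49 and 12.86 in C, while in MF it was 5.17 in C4_1, 10.60 in C4_7 and 11.60 to 12.40 in the other 5 mice. Without C4_1 the difference was −0.74, and the plates gave −2.09, −0.41 and −0.87. Its close copy Hamp2 lay at 4.41, 6.80 and 7.30 in MF and 6.36, 7.27 and 7.68 in C (difference −0.91), and was lowest in C4_1, C4_7 and C4_9. The sequences of Hamp and Hamp2 are close, so that their signals on the array may not be fully separate. Bmp6, the ligand from liver endothelium that raises hepcidin, lay at 6.60, 6.94 and 7.50 in MF and 6.88, 7.49 and 8.30 in C (difference −0.57), with plate values of −0.69, 0.57 and −1.05. Slc11a2, the divalent metal transporter, was 8.46 to 8.79 in C4_1, C4_7 and C4_9 and no more than 7.70 in the other 12 mice (difference 0.57). The transferrin receptor gene Tfrc, named here after its values were seen, was 7.48 to 8.50 in the same mice and no more than 7.22 in the others (difference 0.58). Of the 16 genes of iron handling tested, these were the 5 at an unadjusted p under 0.05, 2 higher and 3 lower in MF (31.25% of the list, against 3.97% of all genes, for a list described after its values were seen), and the median difference of the list was −0.08. The red blood cell markers Slc4a1 and Alas2 were highest in C4_1 as well, with Slc4a1, the anion exchanger of the red cell membrane, at 9.31 against 6.72 or less in any other mouse. Klf1, the other marker tested, went the other way, with a difference of −0.17. It was 6.52 in C4_1 and highest in the C mouse A4_21 (6.89). Of the 3 markers tested, Alas2, the enzyme that starts haem synthesis in red cells, was higher at p under 0.05 (0.57, but −0.15 with well row as a block), and the red blood cell score was −0.53 to 1.45 in MF and −0.51 to 0.27 in C. Their part in the values of the iron genes was not tested.

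The lists that a fat-richer diet most directly concerns are those of lipid metabolism. Each list is described by its counts and median beside those of all genes, and a list score is the mean over members of the log2 value less the gene's mean over all arrays. Of all genes, 2.67% were higher and 1.3% lower at p under 0.05. Leaving out any 1 mouse gave 1.92% to 3.52% higher and 0.90% to 2.22% lower. None of the 21 genes of de novo lipogenesis reached an unadjusted p under 0.05, against 3.97% of all genes, and 19 of them had a negative difference, with a median of −0.14. Fasn, the fatty acid synthase, lay at 9.45, 10.65 and 11.29 in MF and 10.50, 10.94 and 11.48 in C (difference −0.49, 95% interval −1.03 to 0.05). Elovl6, a fatty acid elongase, lay at 9.67, 10.70 and 11.26 in MF and 10.53, 11.04 and 11.46 in C (difference −0.42). Both were lowest in the MF mouse C4_9, as was the desaturase Fads2, at 11.39 against 12.31 or more in the other mice, and the list score was −0.86 in that mouse and −0.86 to 0.26 in MF and −0.23 to 0.32 in C overall. The differences of Fads2 and of Srebf1, the gene of the transcription factor SREBP-1, were −0.32 and −0.29. Without C4_9 the differences were −0.14 for Fads2, −0.31 for Fasn, −0.26 for Elovl6 and −0.20 for Srebf1, and the median of the list was −0.03. With any 1 mouse left out, 0 to 4 of the 21 genes were lower at p under 0.05, with the most without C4_13. The share of all genes lower was also highest without C4_13 (2.22%).

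Genes of cholesterol synthesis were also measured slightly lower in MF. None of its 19 genes reached p under 0.05, all 19 had a negative difference, and the median was −0.19. The median turned to 0.03 without C4_9 and was −0.39 without A4_13. The score of this list varied widely within both groups, −1.59 to 0.35 in MF and −1.28 to 0.91 in C, with C4_9 lowest in MF and A4_13 lowest in C. Hsd17b7, a reductase of the pathway, lay at 9.61, 10.37 and 10.97 in MF and 9.99, 10.77 and 11.37 in C, and its difference of −0.46 had a 95% interval of −0.92 to 0.01. Tm7sf2, a sterol reductase, was 8.28 in C4_9 and 9.30 in A4_13, below the other mice. The members of a pathway are measured in the same mice and are not independent of each other, and the mouse scores of the groups overlapped.

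In PPARalpha targets and fatty acid oxidation, 1 of 22 genes reached p under 0.05, Cpt1a, the enzyme that admits fatty acids to mitochondria. It lay at 11.93, 12.16 and 12.43 in MF and 12.16, 12.39 and 12.44 in C, a difference of −0.16 (95% interval −0.30 to −0.01). The median of the list was −0.08 and Ppara itself differed by −0.12. Acaa1b, a peroxisomal thiolase, ranged from 7.94 to 11.30 in MF and from 9.14 to 11.65 in C. Of 17 PPARgamma targets and genes of the lipid droplet coat, 1 was higher and 1 lower at p under 0.05 (11.8%, against 3.97% of all genes), with a median of 0.02. Fabp4, a fatty acid-binding protein of adipocytes and macrophages, lay at 6.66, 8.36 and 9.44 in MF and 5.87, 7.49 and 8.28 in C (difference 0.93, 95% interval 0.12 to 1.74). It was 9.34 to 9.44 in C4_1, C4_7 and C4_9, above all other mice. Of 7 adipocyte markers, 1 (Fabp4) was higher at p under 0.05, and the list score was −0.29 to 0.48 in MF and −0.38 to 0.49 in C. Retn and Plin1, both specific to fat cells in mice, were at 4.73 and 5.37 at most in MF, and 4.64 and 5.48 at most in C. Pnpla2, the triglyceride lipase, lay at 9.45, 9.87 and 10.09 in MF and 9.76, 10.08 and 10.29 in C (difference −0.28). Fatty acid uptake, binding and activation had 1 of 15 genes at p under 0.05, which was again Fabp4, and a median of −0.03. Cd36, the fatty acid translocase, lay at 10.87, 11.37 and 11.49 in MF and 10.49, 11.15 and 11.42 in C. Its difference of 0.18 had a 95% interval of −0.24 to 0.61, and on plate G150 alone it was −0.03.

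Of 21 genes of bile acid synthesis and transport, 1 was higher and 1 lower at p under 0.05 (9.52%, against 3.97% of all genes). Slc10a2, the sodium-dependent bile acid transporter of ileum and bile ducts, lay at 7.63, 7.97 and 8.87 in MF and 6.72, 7.53 and 8.37 in C (difference 0.51), and Abcc2, an exporter into bile, at 11.21, 11.60 and 11.77 in MF and 11.55, 11.72 and 11.83 in C (difference −0.17). The 2 groups overlapped in both genes. None of 19 genes of glucose and glycogen metabolism reached p under 0.05, and the glycogen synthase gene Gys2 lay at 10.61, 11.04 and 11.64 in MF and 11.15, 11.49 and 11.58 in C. None of 69 respiratory chain subunits did either. Their differences ran from −0.11 to 0.12 with a median of −0.03, the narrowest range of any list with over 10 genes.

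**Figure D3:**
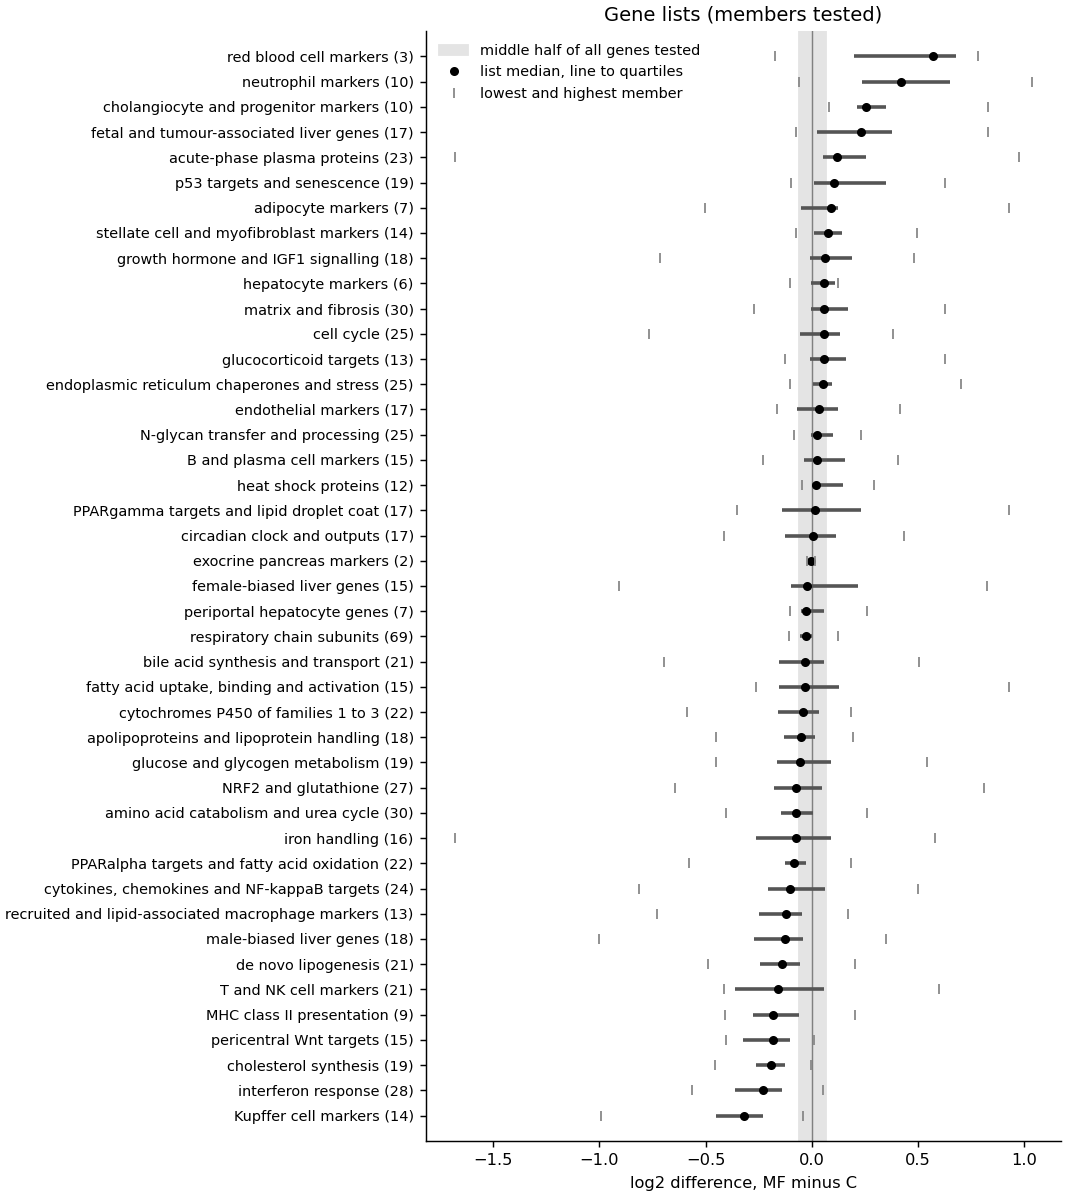
Log2 difference, MF minus C, of the members of 43 gene lists (number of members tested in brackets), with dots for list medians, thick lines for quartiles and ticks for the lowest and highest member; the grey band spans the quartiles of all genes tested, −0.06 to 0.07. Medians run from −0.32 (Kupffer cell markers) to 0.57 (red blood cell markers, 3 genes), and 27 of 43 lie within −0.1 to 0.1.

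Markers of immune cells were measured both above and below the C level. All 14 Kupffer cell markers had a negative difference, with a median of −0.32, but 2 reached p under 0.05 (14.3%, against 1.3% of all genes lower). Without the C mouse A4_5 the median was −0.19, without the MF mouse C4_5 it was −0.46, and on plate G150 alone −0.61. The number at p under 0.05 was 0 without A4_17, C4_9 or C4_13 and 5 without A4_19 (against 1.38% of all genes lower without A4_19). Timd4, a phosphatidylserine receptor of resident Kupffer cells, lay at 6.39, 6.97 and 7.76 in MF and 6.23, 7.84 and 9.30 in C (difference −0.93), with plate values of −1.40, 0.02 and 0.76. Marco, a scavenger receptor, lay at 4.29, 4.58 and 5.84 in MF and 4.57, 5.69 and 8.22 in C (difference −0.99, −0.65 without the C mouse A4_17, the highest). Clec4f, a lectin of Kupffer cells, lay at 9.64, 9.87 and 11.05 in MF and 9.73, 10.66 and 11.41 in C and differed by −0.45, with a 95% interval of −0.98 to 0.08. The haemoglobin scavenger receptor Cd163 was 9.09 in the C mouse A4_3 and no more than 6.30 elsewhere. The Kupffer score was −0.64 to 0.63 in MF and −0.48 to 0.97 in C, so the groups overlapped over most of their range. Of 13 markers of recruited and lipid-associated macrophages, none reached p under 0.05 and the median was −0.12. The interferon response had 0 of 28 genes at p under 0.05 and 27 negative differences, with a median of −0.23 and scores of −0.51 to 0.12 in MF and −0.26 to 0.58 in C. With any 1 mouse left out, 0 to 3 of the 28 genes were lower at p under 0.05, against 0.90% to 2.22% of all genes. Gbp3, a guanylate-binding protein induced by interferon, lay at 6.31, 7.27 and 7.90 in MF and 7.31, 7.59 and 8.30 in C, a difference of −0.56 with a 95% interval of −1.17 to 0.05.

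The 10 neutrophil markers had a median of 0.42, and 3 were higher at p under 0.05 (30%, against 2.67% of all genes). Without C4_1 the median was 0.03 and 0 of the 10 genes reached p under 0.05, and with any other mouse left out the median was 0.36 to 0.55 and 1 to 5 genes did. S100a8, a subunit of the neutrophil protein calprotectin, lay at 4.41, 5.40 and 7.64 in MF and 4.21, 4.86 and 5.59 in C (difference 0.69). Its partner S100a9 differed by 0.65 and Retnlg, a resistin-like protein of neutrophils, by 0.64. The neutrophil score was −0.40 to 2.19 in MF and −0.50 to 0.33 in C. It was 2.19 in C4_1 and at most 0.45 in any other mouse, and without C4_1 the differences of S100a8 and S100a9 were 0.35 and 0.34. B and plasma cell markers had 0 of 15 genes at p under 0.05 and a median of 0.02, but in the MF mouse C4_11 the score was 2.48 against 1.28 in the next highest mouse, the C mouse A4_9. Without C4_11 the median was −0.35 and 4 of the 15 genes were lower at p under 0.05, against 1.43% of all genes. In C4_11 Ms4a1, the B cell antigen CD20, was at 9.66 and Cd79a, a subunit of the B cell receptor, at 9.51, against no more than 5.64 and 5.81 in the other MF mice. MHC class II presentation (0 of 9 genes) was also highest in C4_11, with a score of 1.96. Of 21 T and NK cell markers, Themis, a regulator of T cell selection, was higher at p under 0.05 (0.60) and Klrd1, a receptor subunit of NK cells, lower (−0.41). These were 9.52% of that list, against 3.97% of all genes. The median of the list was −0.16, and Cd8a lay at 5.39, 5.97 and 7.03 in MF and 5.33, 6.40 and 7.17 in C.

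**Figure D4:**
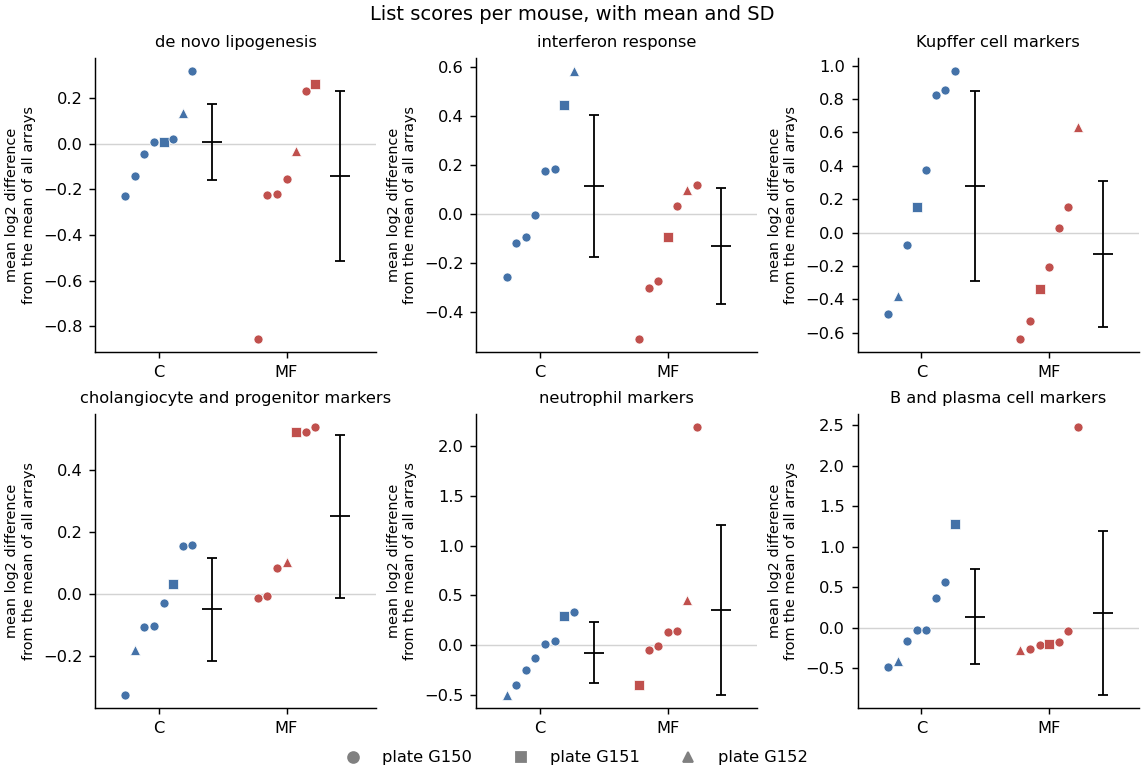
List score of each C and MF mouse (mean over list members of the log2 value less the gene's mean over all arrays) for 6 lists, with marker shape for the plate code, and the group mean and SD as black bars. The groups overlap in every list, and the MF mouse at 2.19 for neutrophil markers (C4_1) is not the one at 2.48 for B and plasma cell markers (C4_11).

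Markers of cholangiocytes, the cells of bile ducts, and of progenitor cells were all measured higher in MF. All 10 genes tested had a positive difference, 5 of them at p under 0.05 against 2.67% of all genes, and the median was 0.26. With any 1 mouse left out, the number at p under 0.05 was 2 (without C4_11 or C4_15) to 7 (without A4_19, against 2.96% of all genes higher) and the median 0.18 to 0.33. The score was −0.01 to 0.54 in MF and −0.32 to 0.16 in C. Cd24a, a surface glycoprotein of progenitor and immune cells, lay at 7.07, 7.86 and 9.61 in MF and 6.54, 7.04 and 7.94 in C (difference 0.83, 95% interval 0.23 to 1.43), and its highest value was in C4_1, which also had the highest neutrophil score. St14, a membrane serine protease of epithelia, lay at 5.12, 5.29 and 6.26 in MF and 4.87, 5.21 and 5.40 in C (difference 0.33), with C4_11 and C4_15 highest. Pkhd1, the fibrocystin of bile duct cilia, lay at 6.18, 6.88 and 7.34 in MF and 6.26, 6.58 and 6.82 in C (difference 0.28), and the tetraspanin gene Tspan8 differed by 0.36. Epcam, an epithelial adhesion molecule named here after its values were seen, was 4.87 to 6.42 over all mice and differed by 0.37. The mouse with the highest level was C4_1 for Cd24a and Tspan8, C4_11 for St14 and Epcam, and C4_15 for Pkhd1. Fetal and tumour-associated liver genes, a list that shares Cd24a and Tspan8 with the former, had 5 of 17 genes higher at p under 0.05 (29.4%, against 2.67% of all genes) and a median of 0.23. Without C4_1 the median was 0.08. Among them Anxa2, a membrane-binding annexin, lay at 7.78, 8.57 and 9.72 in MF and 7.50, 8.08 and 8.59 in C (difference 0.62), and Robo1, a guidance receptor, at 8.04, 8.59 and 9.55 in MF and 7.61, 8.27 and 8.90 in C (difference 0.47). Anxa2 was highest in C4_9 and Robo1 in C4_7.

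Of 30 genes of matrix and fibrosis, 4 were higher at p under 0.05 (13.3%, against 2.67% of all genes; 1 of 30 without C4_1 or without A4_1), and the median was 0.06. They were the collagen VI genes Col6a1 (0.26) and Col6a2 (0.29), the collagen XII gene Col12a1 (0.63) and Eln, the gene of elastin (0.17). Eln lay at 5.28, 5.46 and 5.63 in MF and 4.98, 5.23 and 5.54 in C, whereas Col12a1 was 7.50 in C4_7, 6.56 in C4_9 and at most 5.77 in the other mice. Stellate cell and myofibroblast markers had 0 of 14 genes at p under 0.05 and a median of 0.08. Endothelial markers had 1 of 17, Vwf, the von Willebrand factor (0.42), which was 7.45 to 7.80 in C4_1, C4_7 and C4_9 and no more than 7.02 elsewhere.

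Acute-phase plasma proteins, which the liver secretes in inflammation, had 20 of 23 positive differences and a median of 0.12, and the single member at p under 0.05 was Hamp, which was lower. Saa2, a serum amyloid A gene, was 13.20 to 13.39 in C4_1, C4_7 and C4_9, 12.44 and 12.24 in the C mice A4_9 and A4_17, and no more than 11.14 elsewhere. Of 27 genes of NRF2 and glutathione, 2 were higher at p under 0.05 (7.41%, against 2.67% of all genes). Gpx3, the secreted glutathione peroxidase, was 10.05 to 10.82 in C4_1, C4_7 and C4_9 and no more than 9.33 in the other mice (difference 0.81), and Keap1, the gene of the repressor of NRF2, was 7.72 to 7.83 and no more than 7.40 (difference 0.20). In growth hormone and IGF1 signalling, 1 of 18 genes was higher and 1 lower at p under 0.05 (11.1%, against 3.97% of all genes). Igfbp2, an IGF-binding protein, was 8.35 to 9.03 in C4_1, C4_7 and C4_9 and 9.49 or more elsewhere (difference −0.71), while Stat5a was highest in C4_7 (8.66) and differed by 0.22. Of 25 cell cycle genes, Ccnd1, the gene of cyclin D1, was lower at p under 0.05. It was 7.76 to 8.35 in C4_1, C4_7 and C4_9 and 9.21 or more elsewhere (difference −0.77, 0.028 with well row as a block). None of 25 genes of N-glycan transfer and processing reached p under 0.05, and their median was 0.03. Over all 43 lists, 30 of 751 distinct members were higher in MF at p under 0.05 and 21 lower (6.79% in all, against 3.97% of all genes). No member reached p under 0.05 in 15 lists, and in no list were the mouse scores of the 2 groups free of overlap.

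Among the genes tested were 28 that the paper names, with roles in fatty acid uptake, N-glycosylation, hypoxia and inflammation. The paper measured the cytokines and chemokines as plasma proteins and named others, such as Hif1a and Ahr, as predicted regulators. For genes such as Cd36 and Fut8 it described liver expression in CR, CR-MF and MF. The values here are liver RNA in MF and C. Fabp4 was the only 1 of the 28 at an unadjusted p under 0.05, a share near the 3.97% of all genes. The differences ran from −0.61 for the chemokine gene Cxcl9 to 0.93 for Fabp4, and 25 of 28 lay within −0.3 to 0.3. Cav1, the gene of caveolin-1, lay at 5.80, 6.17 and 6.92 in MF and 5.75, 5.95 and 6.37 in C (difference 0.26, 95% interval −0.06 to 0.58). Ccl5, a chemokine that attracts T cells, ranged from 6.80 to 10.28 in MF and from 6.82 to 9.49 in C (difference −0.41, 95% interval −1.36 to 0.54), with C4_11 highest. Cxcl9, induced by interferon gamma, lay at 7.72, 9.44 and 10.69 in MF and 9.11, 10.10 and 10.73 in C, and was −1.12 on plate G150, −0.03 on G151 and 1.57 on G152. Intervals were narrower for Rpn1 and Rpn2. These genes, subunits of the oligosaccharyltransferase, which attaches N-glycans to proteins, differed by −0.009 (95% interval −0.16 to 0.15) and 0.04 (95% interval −0.06 to 0.14). The intervals of the chemokine genes Ccl2, Ccl3, Ccl5 and Cxcl9 reached past −1, as for Ccl2, which attracts monocytes (−0.14, 95% interval −1.02 to 0.74).

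In a principal component analysis of the 15 mice, component 1 took up 24.6% of the variance, and its mean differed by 1.86 between MF and C (exact permutation p = 0.832, adjusted p = 0.832 over 4 components). That difference was 0.766 without C4_7, 6.24 without A4_1 and 0.321 with median centring, and none of these passed the test. At its low end stood the MF mouse C4_11 (−31.3), and at its high end the C mouse A4_1 (23.1). Genes with the lowest loadings on it included the B cell genes Ms4a1 and Cd79b and the chemokine gene Cxcl13. The second component held 16.5%, with a mean of 5.72 ± 18.0 (SD, n = 7) in MF and −5.01 ± 4.72 (n = 8) in C (exact permutation p = 0.143, adjusted p = 0.571). The MF mice C4_1, C4_9 and C4_7 scored 28.3, 23.6 and 21.8 on it, and the other 12 mice −12.1 to 5.28. Genes with high loadings on it were Prtn3, a neutrophil protease, the acute-phase genes Saa2, Orm2 and Apcs, and Efna3, Fgf23, Ffar4 and Fabp4. Hamp, Hamp2, the elongase Elovl3 and the peroxisomal genes Acaa1b and Acot1 were among those with the lowest loadings. Orm2, an orosomucoid gene, was 13.04 to 13.26 in these 3 mice, 12.58 in the C mouse A4_9 and no more than 11.76 elsewhere. Prtn3 was 8.44 to 9.57 in them, 8.65 in A4_9 and no more than 6.66 elsewhere. Elovl3 was 6.00, 8.55 and 7.30 in C4_1, C4_7 and C4_9, and 6.16 in A4_9, against 7.55 to 10.26 in the other mice. These 3 MF mice lay on plate G150, together with 2 other MF and 6 C mice.

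**Figure D5:**
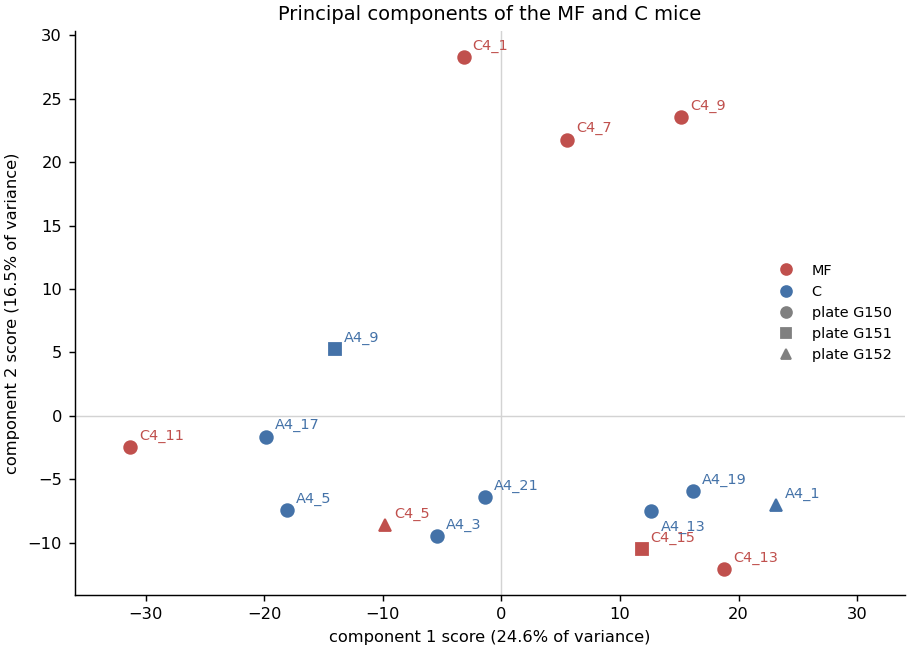
Scores of the 15 mice on the first (24.6% of variance) and second (16.5%) principal components of all genes tested, labelled by mouse, with colour for the diet and marker shape for the plate code. The MF mice C4_1, C4_7 and C4_9 lie at the top, at 21.8 to 28.3 on the second component, and the other 12 mice lie at −12.1 to 5.28 on it.

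The distance of each mouse from its group mean, as a root mean square over genes, was 0.295 ± 0.0475 (SD, n = 7) in MF and 0.261 ± 0.0315 (n = 8) in C. The difference of 0.0340 did not pass an exact permutation test (p = 0.111, two-sided). It lay between 0.0136 and 0.0446 with any 1 mouse left out, lowest without C4_11, whose own value of 0.394 was the highest, and without the MF mouse C4_15 it passed (exact permutation p = 0.034). On plate G150 alone, with 5 MF and 6 C mice, the difference was 0.0659 (exact permutation p = 0.00216, the smallest p that these numbers allow). The SD was larger in MF for 7849 genes (56.1%). It was over 2 times that of the other group for 1181 genes in MF and for 682 in C. The genes with the largest SD in MF were Hamp (2.54), Sult3a1, a sulfotransferase of female mouse liver (2.24), Ngp (1.92), A1bg, another gene higher in female liver (1.90), Prtn3 (1.85) and the cytochrome P450 gene Cyp2b13 (1.77). In C they were the B cell chemokine gene Cxcl13 (2.18), Serpina4-ps1 (2.14), the organic anion transporter gene Slco1a1 (1.97), Cd209f (1.76), the lipid droplet gene Cidea (1.75) and Sult3a1 (1.68). Cxcl13 ranged from 7.10 to 12.93 in C and from 8.17 to 10.85 in MF. Cidea ranged from 4.04 to 9.02 in C and from 4.66 to 8.89 in MF. Slco1a1 spanned 4.33 to 9.96 in C and 5.16 to 10.02 in MF. In each of these genes, mice on the same diet lay further apart than the group means of any gene tested.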

How the data were processed

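Liver RNA of each mouse was measured on 1 array. The authors deposited log2 intensities for 35556 transcript clusters, the manufacturer's units of the array, after background correction, normalization and summarisation by RMA (named in the submitters' processing notes, version not given in the sources used here). Probe sets built on Entrez IDs, as the paper describes, were not used here. A single gene symbol was listed for 21218 clusters, several for 1881 and none for 12457, and only the first were named, as 18820 genes. For the 1386 genes with more than 1 cluster, the one with the highest mean was used. By gene ID 18790 genes matched the RefSeq table of the mouse. The filter of the paper's methods asked for an intensity above 20 (log2 4.32) on 5 or more arrays together with an interquartile range over 0.1, which left 13993 genes.

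Group means were compared with limma 3.58.1 in R 4.3.3 (lmFit and eBayes with an intensity trend) over all 27 arrays in 4 groups, with Benjamini-Hochberg adjustment over the genes kept. Differences are MF minus C, with standard errors and 95% intervals from this fit. For single values, mice were exchanged between groups in exact permutation tests. These were two-sided for the spread and the components. For the distance, larger mean square differences alone were counted. Lists were described by counts and medians, with no test. The number of arrays and, for genes near background, the low signal limit the precision. The scripts were tested on simulated data.

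Named genes are the 10 with the smallest p in each direction (no gene passed, and predicted gene models were left out), the genes the paper names (33, of which 28 passed the filter), up to 4 members with the smallest p in each of the lists described, and the 6 with the largest SD in each group. The other genes named, such as those past a difference of 1, those whose groups did not overlap and those leading a component, were chosen after their values were seen. The members and lists were chosen with earlier results of these data known, and the lists to describe after results were seen. Alternatives tried were other normalizations, filters and moderations, array weights, the 15 arrays alone, a block for plate, well row or animal number, plate G150 by itself and leaving out each mouse, with all transcript clusters, and the lists without each mouse, added after seeing the data. Plate and well are read from codes in the array names, which is inferred. A suffix of unknown meaning stands in 1 array title (A4_9_2, for the C mouse with the listed ID A4_9).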

Additional observations from a re-analysis of the deposited data

Results flagged for a closer look

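Within each group, the highest and the lowest mouse were compared with the other mice for 304 sets of values (levels of named genes, list scores and mouse distances), and a mouse was picked out where its gap to the next one took up an unusually large part of the range of the group. Chance picks about 1 in 20, or 15.2 here, and 27 were found, so many of them may be chance. Some of the genes had been named for a large SD or after their values were seen, so this rate need not hold for them. In the MF mouse C4_1 these were the log2 levels of Hamp (5.17, low), Mfsd2b (6.18), S100a9 (8.16) and Slc4a1 (9.31, all high), the neutrophil score (2.19) and the red blood cell score (1.45). In C4_11 they were Hoxa6 (5.06), the gene of interferon gamma Ifng (5.46), the cytokine gene Il7 (5.19), the B and plasma cell score (2.48) and the distance from the group mean (0.394), all high. In C4_9 the levels of A1bg (8.81) and of Uggt1, a sensor of glycoprotein folding (9.73), were high, and those of Fads2 (11.39) and the cholesterol synthesis score (−1.59) low. Of the remaining MF mice, C4_15 was high for Cd163 (6.30), C4_5 for Klrd1 (5.01) and for the glucosidase gene Mogs (7.16) and C4_7 for Stat5a (8.66), while C4_13 was low for the matrix score (−0.113).

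Of the C mice, A4_3 was low for Kif12 (4.17) and high for Cd163 (9.09), and A4_5 was high for Bend6 (5.55) and for the interleukin gene Il1a (7.97). A4_19 was high for Smoc2 (6.73), A4_13 for A1bg (7.11) and A4_9 for Prtn3 (8.65).

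One signal appeared among the 11178 transcript clusters outside the genes tested, of which 70 had an unadjusted p under 0.01. The cluster 10342944, for which no gene is listed, had lowest, median and highest log2 levels of 5.15, 5.55 and 6.42 in MF and 6.32, 6.66 and 6.74 in C, so that 1 MF mouse overlapped with C. The difference was −0.91 (standard error 0.14, adjusted p = 0.0267 with limma over 25171 clusters), and −0.74, −1.53 and −1.12 on the 3 plates. In CR the levels were 5.71, 6.31 and 6.79 and in CR-MF 6.34, 6.48 and 6.70. The adjusted p lay between 0.000346 and 0.115 with any 1 mouse left out.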

How the results depend on the processing

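Of 126 alternative values of the 5 main measures (genes called, genes at p under 0.01, distance, spread and first component), 114 kept their direction and their side of the threshold or stayed within 1.5 times the count. The number called was 1 with well row as a block (Tsx, 0.74, adjusted p = 0.0206 from limma) and 1 over all transcript clusters, an alternative chosen after seeing the data (the unnamed cluster 10342944). With any 1 mouse left out the number called was 0 to 1. In the fit with well row only CR arrays link the rows, and in these arrays row coincides with plate. The number at p under 0.01 was 41 with a stricter filter (8256 genes), 228 on plate G150 alone, 275 with well row as a block, 182 over all clusters and 74 (without C4_1) to 199 (without C4_13) with a mouse left out. The difference in spread was 0.0659 on G150 alone and 0.0136 to 0.0446 with a mouse left out. Causes were not tested.

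Of 3176 alternative values of 115 named genes, 84 changed sign, mostly of small differences. This held with quantile normalization for Rpn1 (0.0015), Mogs (−0.0024), Btnl2 (−0.016), with median centring for Mogs (−0.013), Uggt1 (−0.021), Btnl2 (−0.020), on G150 alone for Sult3a1 (0.61), A1bg (0.26), Cidea (−0.21), Cd36 (−0.031), Rpn1 (0.058), Il1b (0.13), Btnl2 (−0.18), Ccl4 (−0.039), with array weights for Uggt1 (−0.023), Btnl2 (−0.034), Cd44 (−0.045), Il15 (0.012), and with well row as a block for Alas2 (−0.15), Ccnd1 (0.028), Sult3a1 (1.46), A1bg (0.18), Rest (−0.033), Rpn1 (0.16), Mogs (−0.020), Uggt1 (−0.050), Ifng (−0.028), Tnf (0.21), Il2 (−0.013), Il15 (0.019), Ccl2 (0.14), Ccl4 (−0.14). With any 1 mouse left out, the sign changed for Sult3a1 (−1.12 to 0.042), A1bg (−0.76 to 0.29), Serpina4-ps1 (−0.75 to 0.19), Rpn1 (−0.038 to 0.016), Mogs (−0.028 to 0.082), Uggt1 (−0.062 to 0.035), Il1b (−0.13 to 0.13), Btnl2 (−0.073 to 0.081), Cd44 (−0.089 to 0.17), Ifng (−0.11 to 0.16), Il1a (−0.095 to 0.062), Il15 (−0.13 to 0.045), Ccl2 (−0.39 to 0.10), Cxcl1 (−0.00032 to 0.28).

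The groups share the animal numbers 1, 5, 9 and 13, whose meaning the labels do not give. Deviations of same-numbered mice correlated at −0.0463, 0.238, 0.0305 and 0.357. Correlations of differently numbered mice were not taken, so these values cannot decide whether the numbers pair the mice. In the main fit the numbers were not taken to pair the mice. With the number as a replicate block 0 genes were called and 113 had p under 0.01. The sign changed for Fut8 (−0.060), Tgfb1 (−0.0056), Btnl2 (−0.035), Cd44 (−0.12), Cxcl1 (−0.16). The distance was 0.174 and the difference in spread 0.00154, but both came only from mice whose number occurs in both groups, with 16 possible exchanges. The MF mouse C4_11, whose distance from its group mean was the highest (0.394), was not among them. These values are therefore of a smaller set of mice than the main ones.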
